A study of Homo sapiens with 4 samples.

Results

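The region described here is 17q24 from SOX9 to SLC39A11 and COG1, chr17:71500000-73200000 on hg38, in MHCC97L cells, an established human hepatocellular carcinoma line. Its members were all peak summits of 3 histone marks inside those coordinates, 412 of the 202991 summits deposited, of which 125 of 70301 were for H3K27ac, 220 of 86427 for H3K4me1 and 67 of 46263 for H3K4me3. The members were chosen by position alone, but the coordinates were selected on earlier counts of these same summits, so the number of members and their scores are a description. The cells were untreated and labelled as wild type. One ChIP-seq library, sequenced from DNA that an antibody against the mark pulled down, was made for each mark, and a library of input chromatin from the same line was not analysed here. Each list gives positions 1 bp wide with a score, the authors' −log10 value for a p or a q. The score depends on the depth and background of its own library, so scores are read within a list and not between marks. With 1 library per mark no difference could be tested, and the 95% Wilson intervals below cover counting error only. They count each summit as independent, although summits of the window lie close together, so a value inside or outside an interval is no test.

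Acetylation of histone H3 at lysine 27 (H3K27ac) is known from active promoters and enhancers, monomethylation of lysine 4 (H3K4me1) from enhancers and promoter flanks, and trimethylation of lysine 4 (H3K4me3) from promoters. SOX9 encodes a transcription factor with an HMG-box DNA-binding domain that works in cartilage, testis and bile duct development, and in the liver it marks biliary and progenitor cells. The gene lies between long stretches without protein-coding genes, and enhancers on both sides of it are known from other tissues. Downstream follow the long noncoding RNA (lncRNA) genes LINC00673, also called SLNCR, and LINC00511, then SLC39A11, which encodes the zinc transporter ZIP11, SSTR2, which encodes a somatostatin receptor, and COG1, which encodes a subunit of a Golgi tethering complex. RefSeq places 22 genes in or across the window, of which 4 are protein-coding, 12 are lncRNA genes and 6 are pseudogenes or other noncoding genes.

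As a check of the line, the epithelial keratin genes KRT8 and KRT18 had best H3K27ac scores of 151 and 93.1 over the gene and 1000 bp on either side, CDH1, which encodes E-cadherin, had 54.2, and the keratin gene KRT19 had no H3K27ac or H3K4me1 and a best H3K4me3 of 17.2. The hepatocyte regulator gene HNF4A had H3K27ac of 57.6. Of the other hepatocyte genes, ALB, APOA2 and TTR had no summit of any mark, SERPINA1 had H3K27ac of 3.67 and H3K4me1 of 5.42, and APOA1 had H3K4me3 of 1.80. The fetal liver gene AFP had H3K27ac of 67.2, H3K4me1 of 3.77 and H3K4me3 of 7.29, and GPC3 had H3K4me1 of 5.42 only. The fibroblast genes COL1A1 and COL1A2 and the T cell gene CD3D had no summit. The leukocyte gene PTPRC had H3K27ac of 38.8, H3K4me1 of 8.11 and H3K4me3 of 7.29. All summits of AFP and PTPRC lay inside the genes, with none within 1000 bp of a boundary.

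Sequence is shown for 5 gene starts of the window, because their marks differ although each holds more CG dinucleotides than the median promoter. Each line runs 5′ to 3′ from 250 bases before the start site to 50 bases after it, from RefSeq on GRCh38.p14, and capitals mark CG dinucleotides. No promoter is given for SOX9.
LINC00673, - strand, chr17:72592755-72593054: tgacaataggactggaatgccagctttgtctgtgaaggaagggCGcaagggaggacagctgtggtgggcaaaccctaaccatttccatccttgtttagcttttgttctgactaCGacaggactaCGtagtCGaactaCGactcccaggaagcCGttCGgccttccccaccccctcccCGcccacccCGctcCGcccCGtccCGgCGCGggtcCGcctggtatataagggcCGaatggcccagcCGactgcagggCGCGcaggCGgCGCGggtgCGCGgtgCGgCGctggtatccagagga
LINC00511, - strand, chr17:72640423-72640722: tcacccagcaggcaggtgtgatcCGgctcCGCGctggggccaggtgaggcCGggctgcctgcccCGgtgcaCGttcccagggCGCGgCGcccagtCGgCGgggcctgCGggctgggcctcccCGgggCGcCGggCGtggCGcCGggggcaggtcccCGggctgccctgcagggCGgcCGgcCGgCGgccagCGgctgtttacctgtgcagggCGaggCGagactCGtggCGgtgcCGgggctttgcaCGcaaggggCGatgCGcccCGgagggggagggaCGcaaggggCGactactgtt
SLC39A11, - strand, chr17:73092639-73092938: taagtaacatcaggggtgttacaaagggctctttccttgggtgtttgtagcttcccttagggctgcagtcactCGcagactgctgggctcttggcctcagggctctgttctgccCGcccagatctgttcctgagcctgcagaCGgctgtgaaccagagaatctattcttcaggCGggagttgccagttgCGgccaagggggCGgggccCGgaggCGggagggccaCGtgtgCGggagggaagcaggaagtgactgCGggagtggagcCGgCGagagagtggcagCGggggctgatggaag
COG1, + strand, chr17:73192805-73193104: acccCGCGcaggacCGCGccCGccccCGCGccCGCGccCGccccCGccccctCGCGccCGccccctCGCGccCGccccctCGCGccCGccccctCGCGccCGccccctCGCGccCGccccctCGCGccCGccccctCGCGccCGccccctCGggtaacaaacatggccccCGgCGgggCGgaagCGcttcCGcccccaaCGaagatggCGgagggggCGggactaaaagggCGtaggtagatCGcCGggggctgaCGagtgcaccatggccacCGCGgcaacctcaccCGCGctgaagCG
SSTR2, + strand, chr17:73164760-73165059: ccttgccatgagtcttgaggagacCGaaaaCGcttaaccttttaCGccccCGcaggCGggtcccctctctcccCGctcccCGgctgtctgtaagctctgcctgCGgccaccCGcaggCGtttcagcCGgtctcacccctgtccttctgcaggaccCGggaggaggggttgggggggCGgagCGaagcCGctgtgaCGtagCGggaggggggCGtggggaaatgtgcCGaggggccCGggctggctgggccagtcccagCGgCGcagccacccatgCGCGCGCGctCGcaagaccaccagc

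The COG1 start held 50 CG dinucleotides, more than 98.8% of 27195 promoters of this length, and LINC00511 held 35, SSTR2 27, LINC00673 26 and SLC39A11 14. Over all promoters the median was 12.0. An H3K4me3 summit lay within 1000 bp of 78.1% of the starts with 29 or more CG, of 69.2% with 13 to 28, of 18.9% with 4 to 12 and of 6.18% with 3 or fewer. The letters GGGCGG, searched on both strands and known as the GC box, occurred 13 times at COG1, 2 times each at LINC00673 and SLC39A11 and 1 time each at LINC00511 and SSTR2, and each match holds a CG marked above. At least 1 match was present in 43.5% of all promoters. The letters TGACTCA of AP-1 sites (5.09% of promoters), CCAAT (35.3%) and ATTGTT, a core of SOX sites (10.4%), searched the same way, were in none of the 5 sequences.

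The marks divided the window at the start of SOX9. From the left edge to SOX9, chr17:71500000-72121019, there was no H3K27ac summit and no H3K4me1 summit in 621 kb. The 4 H3K4me3 summits there scored 4.88, 5.58, 6.71 and 11.6. From SOX9 to SLC39A11, chr17:72126417-72645948, 520 kb held 85 H3K27ac, 153 H3K4me1 and 52 H3K4me3 summits, or 16.4, 29.4 and 10.0 per 100 kb. SLC39A11 itself, 447 kb long, held 32, 57 and 8. The last 107 kb, beyond the start of SLC39A11, held 3, 8 and 2.

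The empty side reached past the window. The last H3K27ac summit to the left of SOX9 was at chr17:69777474 with a score of 14.3, which left 2.34 Mb without H3K27ac, and the stretch without H3K4me1 was 2.27 Mb. The whole stretch between KCNJ2, a potassium channel gene, and SOX9, 1941 kb, held 4 summits, all H3K4me3 and all inside the window. KCNJ2 had no summit of any mark within 1000 bp. Empty deserts of this length were not rare in these lists: of 113 stretches of at least 1900 kb without protein-coding genes, 21 (18.6%) had neither H3K27ac nor H3K4me1. The stretches were set by gene positions alone, so some may be empty because reads cannot be placed there. At the right edge, marks continued across the limit, with an H3K27ac summit of 23.6 at 6775 bp inside it and one of 13.2 at 3348 bp outside.

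**Figure D1:**
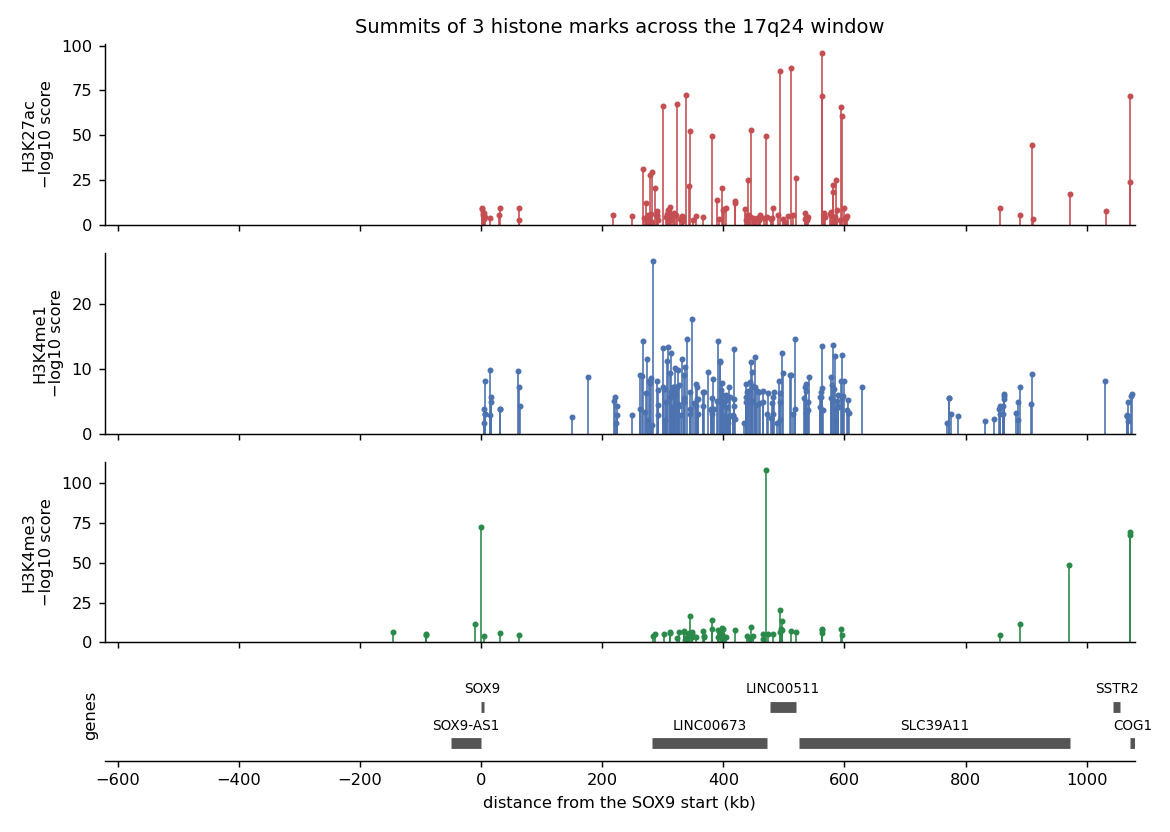
Score of each summit (−log10 p or q, vertical axis, 1 panel per mark with its own scale) against distance from the SOX9 start in kb, with gene bodies below. Each line with a point is 1 summit. To the left of SOX9 the H3K27ac and H3K4me1 panels are empty over 621 kb, and the tall H3K27ac summits stand between 300 and 596 kb to the right of it, with 2 more at 910 and 1071 kb.

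The other side of SOX9 was among the most densely marked deserts. On chromosomes 1 to 22 and X, 1142 stretches of at least 300 kb lay between neighbouring protein-coding genes. The SOX9 to SLC39A11 stretch ranked 6th by H3K27ac density, against a median of 0.376 summits per 100 kb. It ranked 3rd by H3K4me1 density, where the median was 0.183, and 2nd by H3K4me3 density, where the median was 0.277. No H3K27ac summit was present in 333 of the 1142 stretches (29.2%). The densest stretch for both H3K27ac (26.1 per 100 kb) and H3K4me1 (34.0) lay between CEBPB and PTPN1. Counting summits with a score of at least 10 only, the SOX9 to SLC39A11 stretch ranked 13th, 8th and 25th for H3K27ac, H3K4me1 and H3K4me3.

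**Figure D2:**
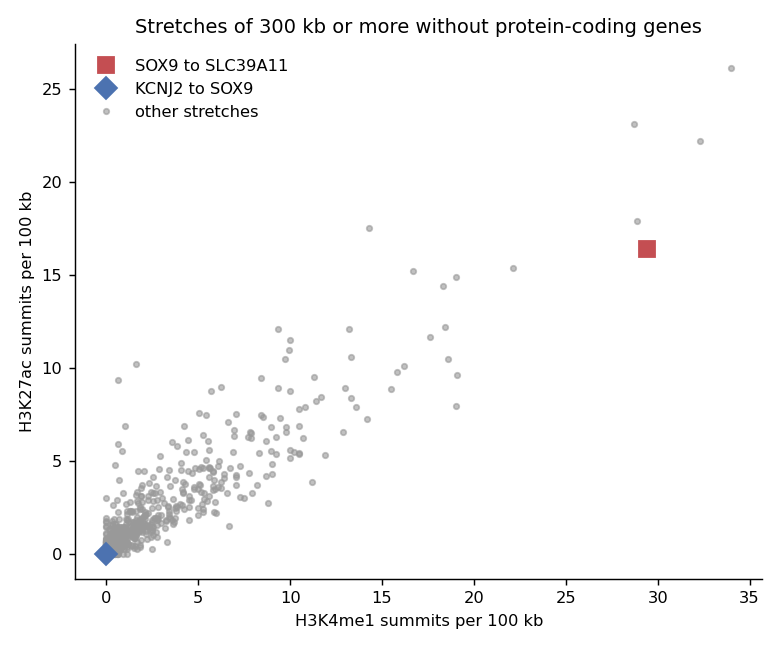
H3K27ac against H3K4me1 summits per 100 kb in the 1142 stretches of at least 300 kb between neighbouring protein-coding genes, each point 1 stretch. The square is the stretch from SOX9 to SLC39A11 (29.4 H3K4me1 and 16.4 H3K27ac summits per 100 kb) and the diamond the stretch from KCNJ2 to SOX9 at 0 for both.

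Set against tiles of the same length, which unlike the stretches can hold protein-coding genes, the whole window was less extreme. The window also contains the empty side, and what lowered its rank was not tested. H3K27ac summits numbered 73.5 per Mb in the window, against 44.3 per Mb on the rest of chromosome 17 and 23.1 per Mb over the rest of chromosomes 1 to 22 and X. H3K4me1 summits numbered 129, 67.1 and 28.4 per Mb in the same order, and H3K4me3 summits 39.4, 34.3 and 15.2 per Mb. At a score of at least 10, the H3K4me3 density turned to 0.984 times that of the rest, against 2.59 times with all summits. Among 1769 tiles over all chromosomes the window ranked 61st for H3K27ac, 27th for H3K4me1 and 109th for H3K4me3, with fewer summits in 96.5%, 98.4% and 93.6% of tiles. Set against tiles of its own, shorter length, the SOX9 to SLC39A11 interval alone exceeded 99.7%, 99.9% and 99.4% of them in the same order. Among 48 tiles of chromosome 17 the window ranked 7th for H3K27ac, 7th for H3K4me1 and 17th for H3K4me3.

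SOX9 itself, chr17:72121020-72126416, carried 1 tall H3K4me3 summit and low H3K27ac. The H3K4me3 summit scored 72.6, the 2703rd of the 46078 summits on chromosomes 1 to 22 and X, and lay 124 bp inside the lower boundary of the gene, taken as its start. It is also within 1000 bp of the upper boundary of the antisense gene SOX9-AS1. The 5 H3K27ac summits in the gene scored 9.67, 8.58, 5.52, 6.51 and 6.51 at 1061, 2014, 2333, 3325 and 4314 bp from the start. All of them lay under 10, and none lay within 1000 bp of the start. Elsewhere, of 6183 protein-coding starts with H3K4me3 of at least 40 within 1000 bp, 477 (7.71%) had a best H3K27ac score under 10 within 2500 bp, and among lncRNA starts the share was 7.65%. H3K4me1 first appeared 4224 bp into the gene with a score of 3.77.

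By a rule that accepts either end of a gene, SOX9 has H3K4me3 and H3K27ac at the same boundary, and that boundary is its 3′ end. An H3K4me3 summit of 4.30 and H3K27ac summits of 3.49 and 4.25 lay within 1000 bp of it. Of 7878 protein-coding genes with a listed start and both marks at one boundary, 179 (2.27%) had both only at the 3′ end.

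Downstream of SOX9 the marks came in small islands before the dense block. At 5.41 to 6.90 kb from the SOX9 start lay 2 H3K27ac, 3 H3K4me1 and 1 H3K4me3 summits, at 13.9 to 16.1 kb 1 H3K27ac and 4 H3K4me1, at 30.3 to 32.0 kb 2, 2 and 1, and at 61.5 to 63.9 kb 2, 3 and 1. The best scores in these 4 islands were 9.38 for H3K27ac, 9.79 for H3K4me1 and 6.12 for H3K4me3. In the rest the median scores were 8.45, 4.58 and 8.23 in the same order. Up to 250 kb there followed single H3K4me1 summits of 2.53 and 8.63 and a group of 5 H3K4me1 and 1 H3K27ac summits. Of this group, 3 H3K4me1 summits lay inside the lncRNA gene LINC02003 and the others before its start. Last came 1 pair of 2.91 for H3K4me1 and 5.04 for H3K27ac. No summit of any mark lay in the 86.2 kb of chr17:72184932-72271133.

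The dense block began 268 kb from the SOX9 start and lay mostly in LINC00673. This lncRNA gene, chr17:72403322-72592804 on the minus strand, held 54 H3K27ac, 102 H3K4me1 and 40 H3K4me3 summits, or 28.5, 53.8 and 21.1 per 100 kb. Of the 15 H3K27ac summits in the window with a score of at least 40, 7 lay in it, 2 in LINC00511, 5 in SLC39A11 and 1 beside COG1, while SOX9 and the 277 kb between it and LINC00673 had none. Such scores made up 12.0% of the H3K27ac summits in the window, against 12.3% in the rest. Scores of 10 or more were held by 32 of 125 H3K27ac summits (25.6%, 18.8 to 33.9), against 43.5% in the rest. For H3K4me3, 11 of 67 (16.4%, 9.42 to 27.1) scored 10 or more and 5 scored 40 or more, against 43.3% and 20.9% in the rest. For H3K4me1, 24 of 220 (10.9%, 7.44 to 15.7) scored 10 or more and 0 scored 40 or more, against 7.87% and 0.00580%. The median H3K27ac score was 5.52 in the window and 8.45 in the rest. For H3K4me1 the median was 5.43 in the window and 4.58 in the rest.

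The tallest H3K4me1 summit of the window stood just inside the 3′ end of LINC00673, at chr17:72404737 with a score of 26.5, the 52nd of 86366. The next were 17.7 at chr17:72469136 and 14.6 at both chr17:72460685 and chr17:72639360. H3K27ac of 29.4 lay 1005 bp from the tallest one. In H3K27ac, the tallest summits were 96.1 at chr17:72683807 in SLC39A11, the 840th of 70028, then 87.4 at chr17:72632175 and 85.8 at chr17:72614973 in LINC00511.

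When H3K27ac summits less than 12000 bp apart were joined, the window held 18 clusters, 7 of them single summits. The largest, chr17:72389112-72475673, joined 39 summits over 86.6 kb of the 3′ side of LINC00673 and the sequence just beyond it, and ranked 18th of 22855 clusters by number of summits. The rank of the largest cluster of the window was 34 with gaps under 5000 bp, 3 with gaps under 25000 bp and 322 with scores of at least 10 only. It also spanned 51 H3K4me1 and 18 H3K4me3 summits, and its 4 H3K27ac summits of at least 40 scored 66.6, 67.2, 72.6 and 52.6. The next joined 27 summits over 83.0 kb from the 5′ end of LINC00673 to the start of LINC00511 (chr17:72557341-72640365) and ranked 75th. Another, of 21 summits over 42.1 kb, lay inside SLC39A11 (chr17:72683807-72725910) and ranked 175th. The remaining large ones joined 8 low summits at SOX9, none over 9.67, and 7 summits of LINC00673 with a best score of 49.5. These 5 clusters took in 102 of the 125 H3K27ac summits (81.6%), and 38.2% of all 22855 clusters were single summits. Without read signal such clusters are no super-enhancer calls.

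**Figure D3:**
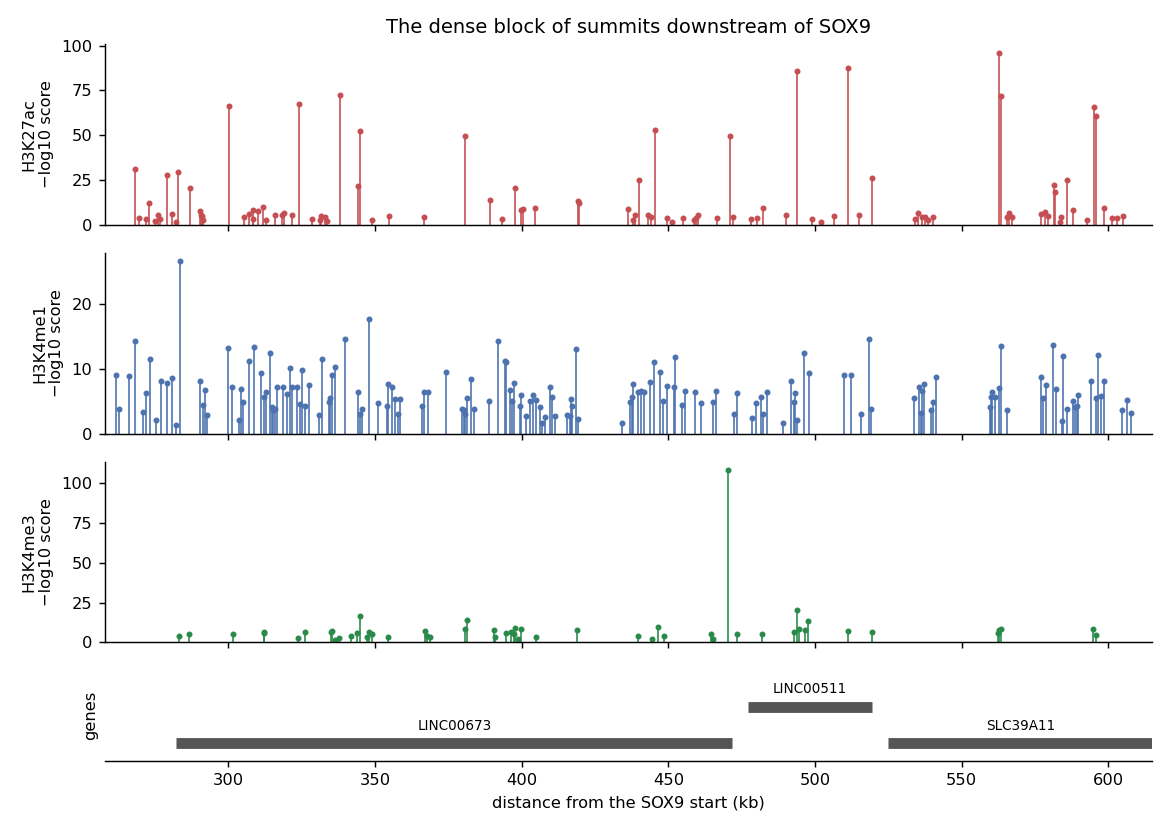
Summits of the 3 marks around the 3 largest clusters, between 268 and 605 kb downstream of the SOX9 start,, with the score (−log10 p or q) on the vertical axis of each panel and gene bodies below. The H3K27ac panel shows summits up to 96.1 in SLC39A11, and the H3K4me3 panel shows 1 summit of 108 at the 5′ end of LINC00673 with all others at 20.2 or lower.

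SLC39A11 was marked unevenly along its length. Its 3′ part, 103 kb next to LINC00511, held 27 H3K27ac, 36 H3K4me1 and 5 H3K4me3 summits, with H3K27ac of 96.1 and 71.6 only 632 bp apart and of 65.5 and 60.6 only 604 bp apart. No mark had a summit in the following 142 kb (chr17:72749179-72891126). The 5′ part of 202 kb held 5 H3K27ac, 21 H3K4me1 and 3 H3K4me3 summits. One of these, H3K27ac of 44.5 at 910 kb from the SOX9 start, had its nearest H3K4me3 summit 19495 bp away. The H3K27ac density was 26.2 per 100 kb in the 3′ part and 2.48 per 100 kb in the 5′ part. Both parts were cut at the summits that border the empty 142 kb, so these densities only describe the split.

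The starts of the other genes differed in how tall their marks were and where they stood. LINC00673 had the tallest H3K4me3 summit of the window, 108, the 179th of 46078, and it stood 1594 bp downstream of the listed start, with H3K27ac of 49.5 at 806 bp. A second H3K27ac summit, of 4.56, lay 311 bp upstream, and no H3K4me3 summit lay within 1000 bp of that start. At the 3′ end of LINC00673, H3K4me3 of 4.09 and H3K27ac of 29.4 both lay within 1000 bp. Of 2287 lncRNA genes with a listed start and both marks at one boundary, 154 (6.73%) had both only at the 3′ end.

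LINC00511 and the divergent lncRNA gene LOC105371887 start 203 bp apart and shared their marks. An H3K27ac summit of 26.2 and an H3K4me3 summit of 6.25 lay 107 and 57 bp downstream of the LINC00511 start, and H3K4me1 of 14.6 lay 1112 bp downstream. Near start sites in the rest, within 1000 bp, the median score was 21.9 for H3K27ac and 41.3 for H3K4me3. SLC39A11 had H3K4me3 of 48.5 at 404 bp and H3K27ac of 17 at 67 bp downstream of its start, with H3K4me1 no nearer than 58834 bp. COG1 had H3K4me3 of 69.3 at 736 bp upstream and 67.2 at 115 bp downstream, beside H3K27ac of 71.6 and 23.6 at 537 bp upstream and 170 bp downstream. SSTR2 had no mark within 1000 bp, although its start held 27 CG, and its nearest H3K27ac summit was 12510 bp away. Within 1000 bp of their starts, LINC01152 had H3K4me3 of 4.88 and 5.58 and LINC02003 had H3K4me1 of up to 5.68. The pseudogene RPL32P33 had H3K27ac of 5.04, and LOC107985005 had H3K27ac of 5.32 at a boundary. LOC107985005 overlaps LINC00511, and the H3K27ac summit of 87.4 lies inside both genes.

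**Figure D4:**
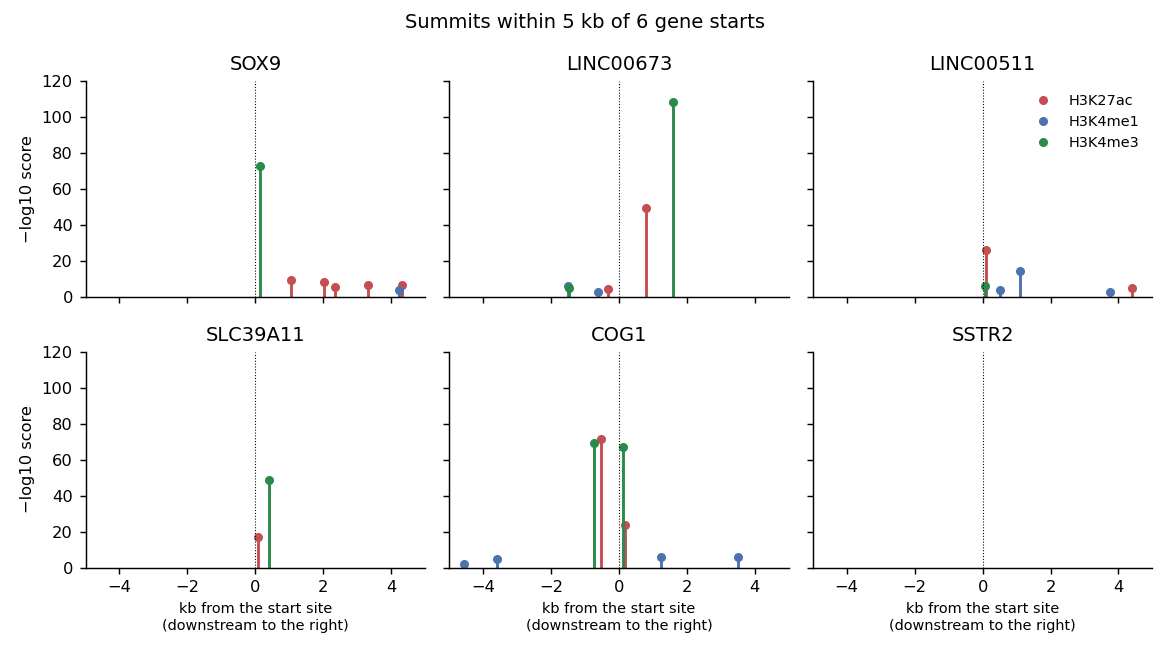
Scores (−log10 p or q) of all summits within 5 kb of 6 gene starts, with distance in the direction of transcription on the horizontal axis and 1 colour per mark. SOX9 has H3K4me3 of 72.6 at its start and H3K27ac under 10 downstream, LINC00673 has its tallest marks 806 and 1594 bp downstream, and SSTR2 has none.

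Of the 22 genes, 8 had H3K4me3, 8 had H3K27ac and 5 had H3K4me1 within 1000 bp of a boundary. Among the 4 protein-coding genes, SOX9, SLC39A11 and COG1 had both H3K4me3 and H3K27ac at a boundary and SSTR2 had neither. Over all protein-coding genes, 56.8% had H3K4me3, 54.1% had H3K27ac and 12.4% had H3K4me1 at a boundary. At start sites alone the shares were 56.6%, 53.2% and 6.10%. Among the lncRNA genes, H3K4me3 was found at LINC01152, SOX9-AS1, LINC00673, LINC00511 and LOC105371887, against 21.9% of lncRNA genes in all, of which 23.1% had H3K27ac and 12.8% had H3K4me1. At their start sites, H3K4me3 was within 1000 bp for LINC01152, LINC00511 and LOC105371887, 3 of the lncRNA genes of the window. The summit at the upper, 5′ boundary of SOX9-AS1 is also that at SOX9 and lay 5128 bp from the listed SOX9-AS1 start. The one at LINC00673 is at its 3′ end. At lncRNA start sites alone the shares over all lncRNA genes were 23.4% for H3K4me3, 24% for H3K27ac and 8.86% for H3K4me1.

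The shares of H3K27ac and H3K4me3 summits with H3K4me1 nearby were higher in the window than in the rest of the lists. H3K4me1 lay within 1000 bp of 100 of 125 H3K27ac summits (80.0%, 72.1 to 86.1), against 52.8% in the rest. It lay as near to 53 of 67 H3K4me3 summits (79.1%, 67.9 to 87.1), against 33.8%. With both lists held to scores of at least 10, 0 of 11 H3K4me3 summits (0%) had H3K4me1 nearby, against 1.84% in the rest. This is below the rest, but 11 summits are too few to give a direction. Of 32 such H3K27ac summits 31.2% had it, against 8.93%. H3K27ac accompanied 44 of 67 H3K4me3 summits (65.7%, 53.7 to 75.9), against 61.5%, and H3K4me3 accompanied 44 of 125 H3K27ac summits (35.2%, 27.4 to 43.9), against 42.5%; in both cases the value of the rest was inside the interval. H3K27ac was near 117 of 220 H3K4me1 summits (53.2%, 46.6 to 59.7), against 49.6%, and H3K4me3 near 68 of them (30.9%, 25.2 to 37.3), against 22%. Both other marks were near 36 H3K27ac summits (28.8%, 21.6 to 37.3), against 15.7%, near 48 H3K4me1 summits (21.8%, 16.9 to 27.7), against 14.5%, and near 36 H3K4me3 summits (53.7%, 41.9 to 65.1), against 23.5%. Neither other mark was near 17 H3K27ac summits (13.6%, 8.67 to 20.7), against 20.5%, and near 83 H3K4me1 summits (37.7%, 31.6 to 44.3), against 42.8%, and near 6 H3K4me3 summits (8.96%, 4.17 to 18.2), against 28.2%. H3K4me1 is itself denser in the window, at 129 summits per Mb against 28.4 in the rest and a median spacing of 1260 bp against 1769 bp. The part of this density in these shares was not tested.

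**Figure D5:**
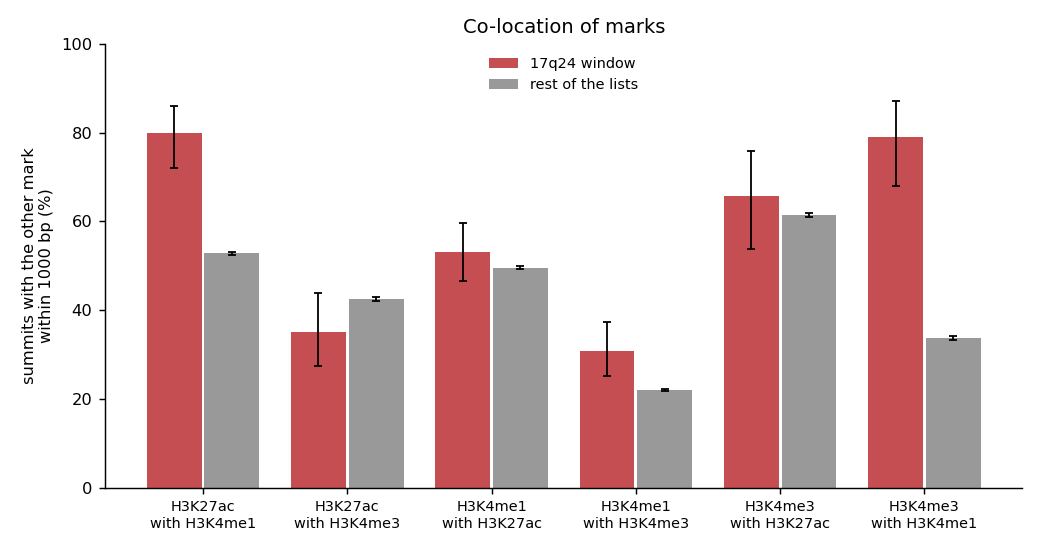
Share of the summits of one mark with a summit of another mark within 1000 bp (percent), in the 17q24 window and in the rest of chromosomes 1 to 22 and X, with 95% Wilson intervals for counting error. The widest gaps are for H3K4me3 with H3K4me1 (79.1% and 33.8%) and for H3K27ac with H3K4me1 (80.0% and 52.8%).

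Few of the summits lay near gene boundaries, and the comparison was repeated away from them. Only 16.4% of the H3K4me3 summits in the window lay within 2500 bp of a boundary of any gene, against 51.9% in the rest, and 15.2% of the H3K27ac summits, against 37.2%. Over 2500 bp from every boundary, 89 of 106 H3K27ac summits in the window (84.0%, 75.8 to 89.7) had H3K4me1 within 1000 bp, against 65.9% in the rest. There, 49 of 56 H3K4me3 summits (87.5%, 76.4 to 93.8) had it, against 52.1%. The share of such H3K27ac summits with H3K4me3 was 32.1% (24 to 41.5), against 29.0% in the rest, whose value is inside the interval.

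Tall and low H3K4me3 summits differed in their H3K4me1. The 5 H3K4me3 summits of at least 40, at SOX9, LINC00673, SLC39A11 and COG1, all had H3K27ac within 937 bp and none had H3K4me1 within 1000 bp. In the rest, 90.2% and 4.45% of such summits did. Of the 56 H3K4me3 summits with a score under 10, 48 (85.7%, 74.3 to 92.6) had H3K4me1, against 49.3% in the rest. LINC00673 held 39 H3K4me3 summits under 40, from 1.77 to 16.4 with a median of 5.58.

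Most of the tall H3K27ac summits of the window were flanked by H3K4me1. H3K4me1 was found on both sides within 2000 bp in 13 of the 15 summits of at least 40 (86.7%, 62.1 to 96.3), against 34.8% of 8606 in the rest. The exceptions were those at the starts of LINC00673 and COG1, where H3K4me1 was on 1 side. H3K4me1 is denser in the window, at 129 summits per Mb and a median spacing of 1260 bp, against 28.4 per Mb and 1769 bp in the rest. The rest was not matched for this density or for distance from starts, and their part was not tested. H3K4me3 lay within 1000 bp of 13 of the 15 (86.7%, 62.1 to 96.3), against 74.2% in the rest, which is inside the interval. Some of these H3K4me3 summits had low scores, such as 2.52 beside H3K27ac of 67.2 and of 72.6 in LINC00673 and 7.37 beside 87.4 in LINC00511.

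Genes related to SOX9 and SLC39A11 are given for context, and over all protein-coding genes 56.8% had H3K4me3 and 54.1% had H3K27ac at a boundary. None of the 3 lists below was tested against those shares. Of 19 SOX family genes with a listed position, 9 had H3K4me3 and 5 had H3K27ac at a boundary. The best H3K4me3 score at a boundary was at SOX6 (80.4), with SOX9 at 72.6. Counting the whole gene and 1000 bp on either side, SOX2 had a higher H3K4me3 score, 84.8, and 8.06 at a boundary. SOX1, SOX3, SOX7, SOX8, SOX10, SOX11, SOX14, SOX15, SOX17 and SOX21 had no mark in or within 1000 bp of the gene. SOX8 and SOX10 are the close relatives of SOX9. Of the 14 SLC39 zinc transporter genes, 9 had H3K4me3 and 8 had H3K27ac at a boundary, with the best H3K4me3 at SLC39A1 (114) and no mark at SLC39A2 and SLC39A12. Counting the gene and 1000 bp on either side, SLC39A11 had the most H3K27ac summits of the list, 32, followed by SLC39A14 with 6. These counts were not adjusted for gene length. SLC39A11 is 447 kb long, with 7.16 H3K27ac summits per 100 kb, and lies in the window selected on these same summits. Of 18 biliary and hepatic progenitor genes, SOX9 included, 13 had H3K4me3 and 9 had H3K27ac at a boundary. HES1, a Notch target gene, had the best H3K4me3 score at 97.4, and EPCAM and PROM1, which encode surface markers of progenitor cells, had no mark.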

How the data were processed

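Each mark has 1 summit list, as the authors deposited it, with no peak width or read count, so the depth is unknown. Bowtie, Picard, deepTools and MACS2 and the hg38 build are named per the submitters' processing notes, but no version, no setting and no control for peak calling is named (not given in the sources used here). As deposited, the score is a −log10 p-value or q-value. Each summit had its own peak name. Chromosomes 1 to 22 and X were kept, using Python 3.11.15 and scipy 1.17.1, leaving out 273 H3K27ac, 61 H3K4me1 and 185 H3K4me3 summits elsewhere.

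Genes and starts came from RefSeq on GRCh38.p14, which shares the chromosome coordinates of hg38. The promoter table gave starts and strands and replaced boundaries where named. For SOX9, which has no entry there, the lower boundary was used. Chromosome lengths ran to the last gene or summit.

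Marks within 1000 bp were called co-located, H3K27ac summits under 12000 bp apart were joined, and tiles and stretches without protein-coding genes were ranked. No tile or stretch was left out for sequence where reads cannot be placed. The counting code was tested on simulated positions. Each mark has 1 library, so no test of a difference was made. Ranks and shares are descriptions. The members, gene lists, cell markers and score limits of 10 and 40 were chosen with earlier results of these data known. Named were all genes with a summit at a boundary, all protein-coding genes, the 5 largest clusters and the 3 tallest summits per mark. In each list, the gene with the best H3K4me3 at a boundary and the unmarked genes were named. SOX2, SLC39A14, genes at the edges of ranked stretches and further summits were named after their values were seen.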

Additional observations from a re-analysis of the deposited data

How the results depend on the processing

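Of 78 recomputed values, 43 stayed close to the reported value, 34 moved and 1, a density, reversed. Among them, the comparison of co-location shares with the rest turned for 4 pairs of marks. This was with scores under 10 left out of both lists, on 11 or 24 summits per pair. With no read counts, how depth limits these lists is unknown. At a score of at least 10 the window kept 32 H3K27ac, 24 H3K4me1 and 11 H3K4me3 summits. Its density relative to all other sequence was then 1.87 for H3K27ac, 6.31 for H3K4me1 and 0.984 for H3K4me3. The H3K4me3 density thus turned from above to below the rest, against 2.59 with all summits. The share in the SOX9 to SLC39A11 stretch became 83.3% of H3K4me1 and 45.5% of H3K4me3, and the share in SLC39A11 16.7% of H3K4me1. With both lists held to that score, H3K4me1 lay near 31.2% of H3K27ac and 0% of H3K4me3 summits, H3K4me3 near 25% of H3K27ac and 0% of H3K4me1, and H3K27ac near 33.3% of H3K4me1. In the rest these shares were 8.93%, 1.84%, 44.1%, 5.73% and 39.9%, and H3K27ac lay near 63.6% of H3K4me3 in the window, against 66.0% in the rest. The pairs that turned to below the rest were H3K4me3 with H3K4me1, H3K4me1 with H3K4me3, H3K4me1 with H3K27ac and H3K4me3 with H3K27ac. Their shares rest on 24 H3K4me1 or 11 H3K4me3 summits, too few to give a direction. Within 500 bp, H3K27ac had H3K4me1 in 62.4% and H3K4me3 in 26.4%, H3K4me1 had H3K27ac in 35.0% and H3K4me3 in 18.2%, and H3K4me3 had H3K27ac in 49.3% and H3K4me1 in 58.2%, against 38.1%, 31.3%, 32.6%, 12.9%, 46.9% and 23% in the rest. Within 2500 bp the same shares were 95.2%, 52.8%, 80.5%, 50%, 94.0% and 89.6%, against 67.2%, 53.9%, 68.4%, 36.7%, 75.5% and 46.3% in the rest. Joining H3K27ac at gaps under 5000 bp gave 29 clusters with at most 18 summits, and under 25000 bp 9 clusters with at most 104. Joining only scores of at least 10 gave at most 5. By start sites, chosen after seeing the data, 5 genes had H3K27ac, and H3K4me1 was at 2 genes within 500 bp of a boundary and 8 within 2500 bp. For H3K4me3 the SOX9 to SLC39A11 interval exceeded 99.4% of tiles of its length. The cause of these shifts was not tested beyond the construction of each setting. Counting 1 summit per peak changed nothing, since each summit has its own peak name. No paired analysis was possible because each mark has 1 library and no value comes from a test.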
